A study of Homo sapiens with 18 samples.

Results

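A set of 38 transcripts was present at a raised level in sgZ1 replicate 2 and sgZ3 replicate 3, which are 2 of the 9 poly(A) RNA libraries of a CRISPR study in DLD1 cells. The members were chosen from the measured levels. A gene entered the set when it reached at least 2 CPM (counts per 1000000 counts of the library) in both libraries and when each of them was at least 4 times each of the other 7 libraries, after 0.1 CPM was added to every value. The rule took 38 of 47021 genes (0.0808%), and 11409 genes had at least 2 CPM in both libraries. The high values in these 2 libraries are therefore the definition of the set and are given as a description, with no test.

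DLD1 is an established human colorectal adenocarcinoma line, an epithelial cell. The cells labelled sgZ1 and sgZ3 received guide 1 or guide 3 against ZNF692, a zinc-finger gene, and carry the genotype label of a knockout. The cells labelled sgC received a control guide and are labelled wild type. All had been given lentiviral particles and were kept in 10 µg/ml puromycin as stable lines, so the controls share the virus and the drug. Each guide had 3 poly(A) libraries. The labels do not say whether the lines were clones or pools, or whether replicates came from separate cultures, so a p-value measures only the spread between these libraries.

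Mesenchymal cells such as fibroblasts build the extracellular matrix. They secrete fibrillar collagens and the glycoproteins that bind them, and their main intermediate filament is vimentin. Mesothelial cells line the peritoneum, pleura and pericardium. They combine epithelial keratins with vimentin and are recognised by calretinin (CALB2), WT1, mesothelin and uroplakin genes. Colorectal epithelial lines normally hold little of either programme.

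The promoters of SPARC, THBS2 and FBN1 are shown because they are 3 matrix genes of the set whose windows hold the same short word, GGAATG, the core bound by TEAD factors. The windows are the 250 bases before the RefSeq transcription start on GRCh38.p14, written 5′ to 3′ on the gene's strand. Each of the 3 genes lies on the minus strand, SPARC at chr5:151686916-151687165, THBS2 at chr6:169253847-169254096 and FBN1 at chr15:48644971-48645220. Capitals mark GGAATG, its reverse complement CATTCC, and TATAAA.
SPARC: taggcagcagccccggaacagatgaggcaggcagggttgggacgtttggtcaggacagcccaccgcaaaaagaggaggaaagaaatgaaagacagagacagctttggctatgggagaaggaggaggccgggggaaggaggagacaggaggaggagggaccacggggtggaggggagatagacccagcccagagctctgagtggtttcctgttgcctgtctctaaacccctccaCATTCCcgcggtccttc
THBS2: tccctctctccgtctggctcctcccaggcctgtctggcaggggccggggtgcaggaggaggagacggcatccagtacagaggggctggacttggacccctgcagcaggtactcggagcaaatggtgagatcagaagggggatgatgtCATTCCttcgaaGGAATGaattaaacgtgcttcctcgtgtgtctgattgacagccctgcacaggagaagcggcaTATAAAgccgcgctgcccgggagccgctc
FBN1: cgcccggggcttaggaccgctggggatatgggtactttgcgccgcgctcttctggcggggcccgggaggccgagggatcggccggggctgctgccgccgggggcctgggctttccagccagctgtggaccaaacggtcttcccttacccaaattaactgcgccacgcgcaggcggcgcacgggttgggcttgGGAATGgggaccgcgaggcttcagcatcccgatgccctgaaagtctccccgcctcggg

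RefSeq promoter windows were found for 25 of the 38 members. GGAATG, on either strand, was present in 7 of these (28.0%), against 11.9% of 27305 windows and 9.05% of the windows of 8755 genes with at least 2 CPM in all 9 libraries. The 7 were ARSI, FBN1, IFI16, MYPN, SPARC, TENM2 and THBS2. In SPARC its first base lay at -17 from the RefSeq start. THBS2 held it at -103 and -91, with TATAAA at -29. TATAAA was present in 4 member windows (16.0%), in 11.1% of all windows and in 4.89% of those of the expressed genes. TGANTCA, the AP-1 word, was in 1 (4.0%, GJA1) against 6.6% and 3.56%, and CACCTG, an E-box, in 4 (16.0%) against 17.5% and 15.8%. The CArG box was in 0 of 25, against 1.14% and 0.982%. Both strands were searched for each motif, and in MYPN a CACCTG match and a GGAATG match share a base. These matches describe letters in a window and carry no test. Median GC content was 58.0% in the members, 58.0% in all windows and 65.6% in those of the expressed genes.

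Total counts ran from 16044224 to 24535642 per library. The 2 libraries that define the set had 24535642 (sgZ1 replicate 2) and 20613158 (sgZ3 replicate 3). ZNF692 itself stood at 9.94, 9.78 and 11.6 CPM in sgZ1 and at 7.29, 7.61 and 6.02 CPM in sgZ3, against 7.37, 6.50 and 6.56 CPM in sgC. Its mRNA level does not check the labels, since small CRISPR insertions or deletions need not lower it. The epithelial adhesion gene EPCAM was at 1020 CPM in sgZ1 replicate 2 and 1479 CPM in sgZ3 replicate 3, against 973 to 1432 CPM in the other 7. These 2 libraries also stood apart from their sisters over all genes. Set against replicates 1 and 3 of sgZ1, sgZ1 replicate 2 gave a chi-square per degree of freedom over gene counts of 27.4 and 32.7, against 10.3 between those 2. On this scale sampling noise alone gives about 1, and deeper libraries give higher values for the same difference. Set against replicates 1 and 2 of sgZ3, sgZ3 replicate 3 gave 28.4 and 26.8, against 4.73 between those 2. Pairs of sgC libraries gave 4.19 to 9.89. The part of the set in these values was not tested.

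Summed over the set, the 38 transcripts made 391 CPM in sgZ1 replicate 2 and 370 CPM in sgZ3 replicate 3. The other libraries had 19.0 and 21.6 CPM (sgZ1 replicates 1 and 3), 16.0 and 16.4 CPM (sgZ3 replicates 1 and 2) and 22.8, 19.0 and 19.5 CPM (sgC replicates 1, 2 and 3). Even in the 2 libraries the set was a small share of the RNA, 0.0391% and 0.0370% of all counts. The median member was at 6.34 and 5.94 CPM there, against medians of 0.0255 to 0.102 CPM in the other 7. All 38 members had counts in both libraries, while 8 to 19 members had 0 counts in each of the other 7. In bulk RNA, more cells of a type and more RNA per cell cannot be told apart, and this holds for every level given here. SPARC and KRT7 carried much of the signal in the other libraries. Without these genes the sums were 285 and 265 CPM in the 2 libraries and 4.90 to 11.9 CPM in the other 7.

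**Figure D1:**
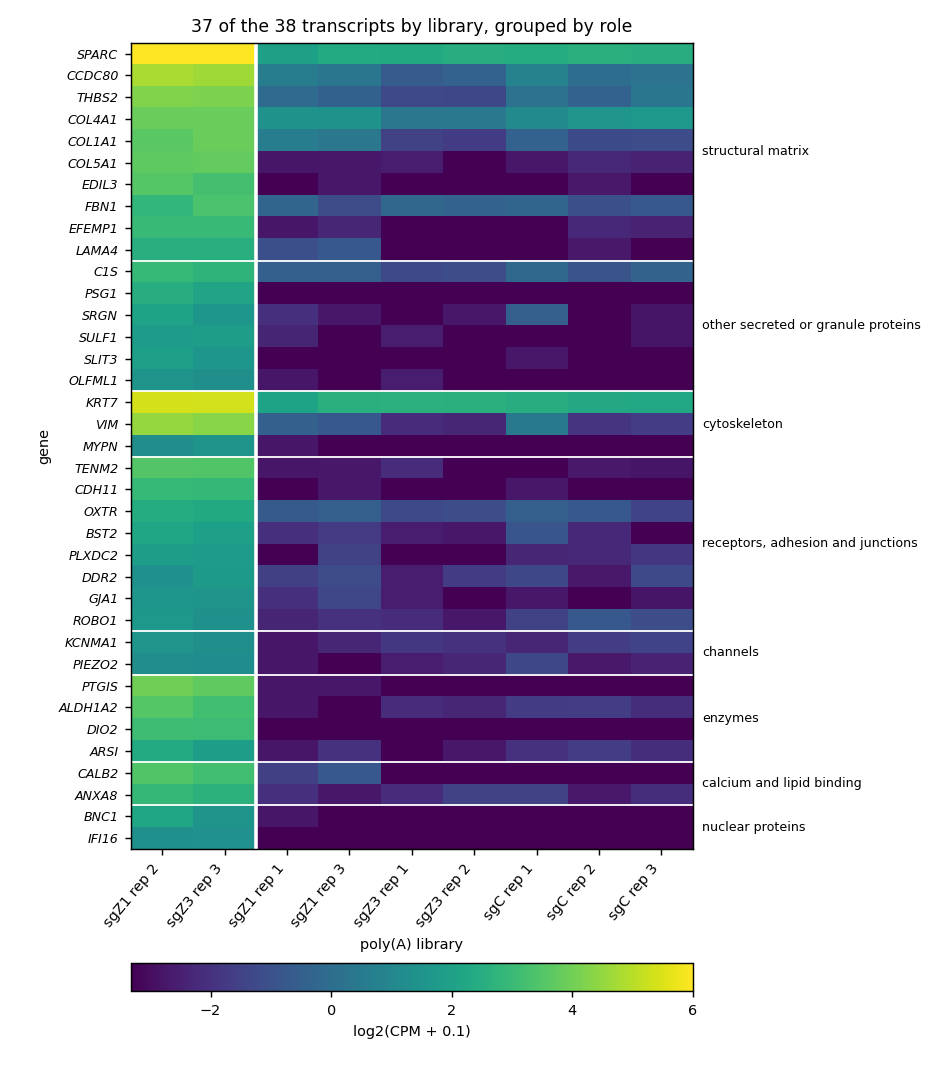
Colour gives log2(CPM + 0.1) of 37 of the 38 members (rows, grouped by role) in each of the 9 poly(A) libraries (columns). The 2 libraries left of the white line were used to choose the genes, and every row is brighter there than in the other 7. SPARC, KRT7 and COL4A1 are the rows that reach 2 CPM or more in some library to the right of the line.

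Structural proteins of the extracellular matrix were the largest group by role, with 10 members. Their levels summed to 182 CPM in sgZ1 replicate 2 and 183 CPM in sgZ3 replicate 3, against 8.04 to 11.8 CPM in the other 7. SPARC, a secreted glycoprotein that binds collagen, was the most abundant member. It had 64.0 CPM in sgZ1 replicate 2 and 63.8 CPM in sgZ3 replicate 3. In the remaining libraries it had 3.84 and 5.05 CPM (sgZ1), 4.92 and 5.57 CPM (sgZ3) and 5.37, 5.90 and 5.47 CPM (sgC). SPARC was thus also detected at a low level in all of the other 7, and 1 of the 4 other sgZ1 and sgZ3 libraries was within the range of sgC while 3 were below it. Its locus is chr5:151661096-151687165, minus strand (GRCh38, GENCODE 29).

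CCDC80, a secreted protein of the matrix, had 28.1 CPM in sgZ1 replicate 2 and 25.6 CPM in sgZ3 replicate 3. Its other values were 1.39 and 1.15 CPM (sgZ1), 0.561 and 0.664 CPM (sgZ3) and 1.69, 0.937 and 1.09 CPM (sgC). THBS2, a thrombospondin that regulates matrix assembly, had 18.7 and 17.7 CPM in these 2 libraries. It had 0.865 and 0.650 CPM in the other sgZ1 libraries, 0.312 and 0.306 CPM in the other sgZ3 libraries and 1.02, 0.661 and 1.18 CPM in sgC. For both genes the lowest values of all 9 libraries were in sgZ3 replicates 1 and 2, the sister libraries of sgZ3 replicate 3.

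Collagen chains were represented by COL1A1, COL4A1 and COL5A1. COL5A1, a chain of type V collagen that starts fibril formation, had 12.8 CPM in sgZ1 replicate 2 and 13.6 CPM in sgZ3 replicate 3. Elsewhere it had 0.0480 and 0.050 CPM (sgZ1), 0.0623 and 0 CPM (sgZ3) and 0.0512, 0.110 and 0.0905 CPM (sgC), which is at most 2 counts per library. COL1A1, a chain of type I collagen, had 12.1 and 14.5 CPM in the 2 libraries, 1.44 and 1.20 CPM in the other sgZ1 libraries, 0.249 and 0.204 CPM in the other sgZ3 libraries and 0.665, 0.331 and 0.362 CPM in sgC. COL1A2, which encodes the partner chain of COL1A1 in type I collagen, did not accompany it, with 0.0815 CPM in sgZ1 replicate 2, 0 CPM in sgZ3 replicate 3 and 0 CPM in the other 7. COL4A1, a basement membrane collagen, had 14.7 and 14.6 CPM, against a lowest value of 1.18, a median of 2.64 and a highest value of 3.03 CPM in the other 7.

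The remaining structural members were FBN1, EFEMP1, LAMA4 and EDIL3. FBN1, the main protein of elastic microfibrils, had 7.05 CPM in sgZ1 replicate 2 and 10.1 CPM in sgZ3 replicate 3, against 0.35, 0.664 and 0.748 CPM as the lowest, median and highest of the other 7. EFEMP1, a fibulin, had 7.70 and 7.71 CPM, against at most 0.110 CPM. LAMA4, a laminin chain of vascular and mesenchymal basement membranes, had 5.62 and 5.68 CPM. Its other values were 0.384 and 0.50 CPM in sgZ1, 0 CPM in both sgZ3 libraries and 0, 0.0551 and 0 CPM in sgC. EDIL3, an integrin-binding matrix protein, had 11.6 and 9.46 CPM, against at most 0.0551 CPM, which is 1 count.

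**Figure D2:**
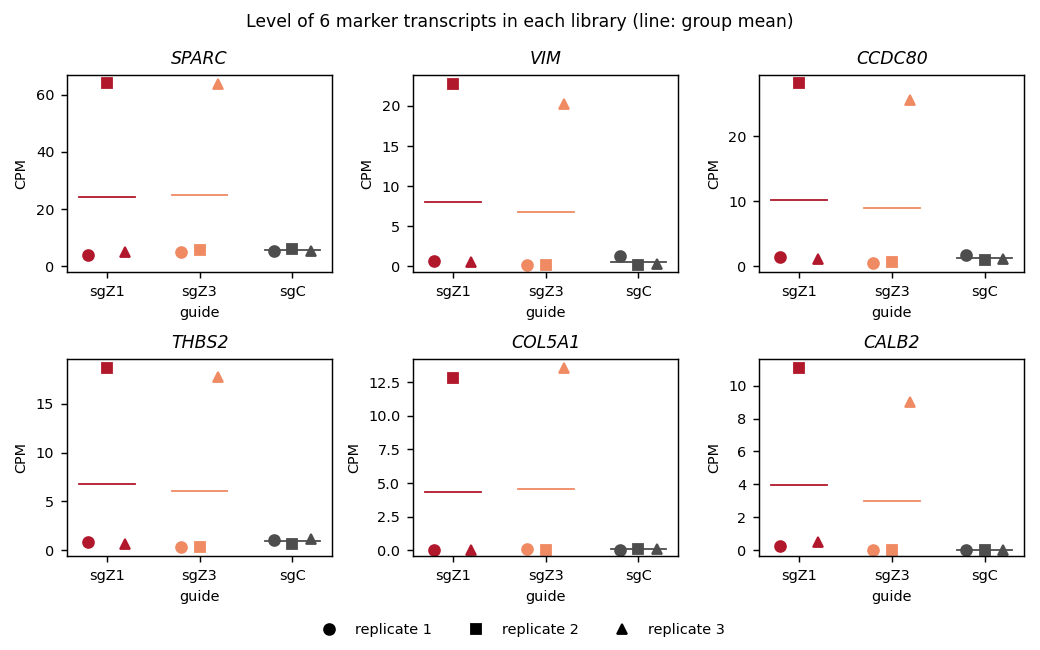
CPM of SPARC, VIM, CCDC80, THBS2, COL5A1 and CALB2 in each library, by guide (sgZ1, sgZ3, sgC; n = 3 each). Points are libraries, shaped by replicate number, and lines are group means. In every panel 1 sgZ1 point (replicate 2) and 1 sgZ3 point (replicate 3) stand high while the other 7 lie near the bottom, so each sgZ1 and sgZ3 mean falls between points.

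Other secreted or granule proteins gave 6 members, summing to 27.0 CPM in sgZ1 replicate 2 and 22.7 CPM in sgZ3 replicate 3, against 0.409 to 1.43 CPM. C1S, a complement protease, led them with 7.54 and 6.65 CPM, against 0.312 to 0.768 CPM. Its exons overlap those of EMG1 on the same strand, a gene at 73.9 to 138 CPM, so its counts are less certain. PSG1, a pregnancy-specific glycoprotein best known from the placenta, had 5.46 and 4.27 CPM (134 and 88 counts) and 0 counts in all of the other 7. PSG genes are near-identical copies, and counting may have divided or dropped their reads. PSG4 (2.32 and 1.75 CPM) was past 4-fold as well, with at most 0.249 CPM in the other 7. PSG2 (1.79 and 1.5 CPM) and PSG5 (1.83 and 2.13 CPM) also had counts in both libraries and 0 counts in the other 7. SULF1, which edits heparan sulfate, had 3.42 and 3.59 CPM, against at most 0.0961 CPM. SLIT3, a guidance ligand for ROBO receptors, had 3.71 and 2.91 CPM, against at most 0.0512 CPM. OLFML1 had 2.73 and 2.38 CPM, against at most 0.0623 CPM. SRGN, a proteoglycan of secretory granules, had 4.12 and 2.91 CPM, against 0.614 CPM in sgC replicate 1 and at most 0.144 CPM in the remaining 6.

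Cytoskeletal members summed to 67.5 and 63.6 CPM, against 4.80 to 6.76 CPM. VIM, the vimentin gene (chr10:17228259-17237593, plus strand), had 22.8 CPM in sgZ1 replicate 2 and 20.2 CPM in sgZ3 replicate 3. Its other values were 0.625 and 0.50 CPM (sgZ1), 0.125 and 0.102 CPM (sgZ3) and 1.28, 0.165 and 0.226 CPM (sgC). Among these 7, sgC replicate 1 was the highest, and the sgC values alone spread widely (0.557 ± 0.626 CPM, SD, n = 3). KRT7, a simple-epithelial keratin found in mesothelium and many glandular tissues but little in colon, had 42.3 and 40.6 CPM. It was present in every library, at 4.13 and 5.90 CPM (sgZ1), 6.11 and 5.98 CPM (sgZ3) and 5.48, 4.90 and 4.70 CPM (sgC). MYPN, a sarcomeric protein, had 2.36 and 2.72 CPM, with 1 count in all of the other 7 together.

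Receptors, adhesion molecules and junction proteins gave 8 members, at a sum of 40.5 and 39.0 CPM against 0.664 to 1.95 CPM. TENM2, a teneurin adhesion receptor, had 11.2 and 11.1 CPM, against at most 0.125 CPM. CDH11, the cadherin of mesenchymal cells, had 7.46 and 7.33 CPM, with 1 count in each of 2 other libraries and 0 counts in 5. OXTR, the oxytocin receptor, had 5.42 and 5.00 CPM, against 0.271 to 0.614 CPM. BST2 (tetherin) had 4.52 and 3.74 CPM, against at most 0.461 CPM, and PLXDC2 had 3.55 and 3.40 CPM, against at most 0.250 CPM. GJA1, a gap junction connexin, had 2.89 and 2.72 CPM, against at most 0.300 CPM. ROBO1, a receptor for SLIT ligands, had 3.02 and 2.47 CPM, against 0.0511 to 0.496 CPM. DDR2, a receptor kinase for fibrillar collagen, had 2.45 and 3.25 CPM, against 0.0551 to 0.35 CPM. The ligand SLIT3 and the receptor ROBO1 were thus both in the set, as were the collagen chain COL1A1 and the collagen receptor DDR2.

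The channel genes KCNMA1, a calcium-activated potassium channel, and PIEZO2, a mechanosensitive channel, were near the lower limit of the rule. KCNMA1 had 2.81 and 2.43 CPM, against 0.0480 to 0.271 CPM. PIEZO2 had 2.36 and 2.23 CPM, against at most 0.307 CPM. Per kilobase of exon they were the least abundant of the set (0.0735 and 0.155 CPM per kilobase, ranks 38 and 37).

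The enzyme genes had little signal outside the 2 libraries. Their sum was 41.0 and 34.3 CPM, against 0.125 to 0.441 CPM. PTGIS, the prostacyclin synthase, had 15.7 CPM in sgZ1 replicate 2 and 13.2 CPM in sgZ3 replicate 3. It had 1 count in each of the other sgZ1 libraries and 0 counts in the other sgZ3 and all sgC libraries, so the mean of the 2 libraries was at least 289-fold higher than sgC at the limit of 3 counts over the group. DIO2, which activates thyroid hormone, had 8.44 and 8.39 CPM (207 and 173 counts) and 0 counts in all of the other 7, at least 168-fold higher than sgC at the same limit. ALDH1A2, a retinoic acid synthesising enzyme that is prominent in mesothelium, had 11.7 and 9.02 CPM, against at most 0.220 CPM. ARSI, an arylsulfatase, had 5.14 and 3.69 CPM, against at most 0.220 CPM.

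CALB2, the calretinin gene, had 11.1 CPM in sgZ1 replicate 2 and 8.97 CPM in sgZ3 replicate 3. It had 0.240 and 0.50 CPM (5 and 10 counts) in the other sgZ1 libraries and 0 counts in the other sgZ3 and all sgC libraries. The mean of the 2 libraries was at least 200-fold higher than sgC at the limit of 3 counts over the group. ANXA8, an annexin, had 7.30 and 6.21 CPM, against 0.050 to 0.256 CPM. Its near-identical copy ANXA8L1 had 1.30 and 1.36 CPM, against at most 0.102 CPM, and counting may have divided or dropped their reads.

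The set held 1 DNA-binding regulator of transcription by the roles assigned here, BNC1, a basonuclin zinc-finger factor of mesothelium and some squamous and germ cells. It had 4.32 CPM in sgZ1 replicate 2 and 2.77 CPM in sgZ3 replicate 3, with 1 count in sgZ1 replicate 1 and 0 counts in the remaining 6. IFI16, an interferon-inducible sensor of DNA, had 2.49 and 2.52 CPM and 0 counts in all of the other 7.

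Scaled by exon length, the order of levels changed. SPARC (13.2 CPM per kilobase, mean of the 2 libraries) and KRT7 (10.1) stayed first, and CALB2 (5.89), VIM (4.17) and BST2 (3.69) followed. CCDC80, in place 3 by CPM, was in place 9 per kilobase (2.06). Lengths are the joined exons of all GENCODE transcripts of a gene, which need not be the ones transcribed here.

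The 2 libraries held the members at nearly the same levels, although they carry different guides and different replicate numbers. The ratio of sgZ1 replicate 2 to sgZ3 replicate 3 had a median of 1.06 over the 38 members and ran from 0.695 (FBN1) to 1.56 (BNC1). Of the members, 37 (97.4%) were within 1.5-fold, beside 91.6% of the 11409 genes with at least 2 CPM in both libraries. The SD of the log2 ratio was 0.234 over the members and 0.390 over those genes. The 95% Clopper-Pearson intervals of the 2 libraries overlapped for 37 members. FBN1 was the exception, with 6.04 to 8.18 CPM in sgZ1 replicate 2 and 8.81 to 11.6 CPM in sgZ3 replicate 3. These intervals cover counting error only. The members were chosen for a high level in both libraries, so this likeness is a description. The rule set a lower limit in each library and no upper one, and a gene high in only 1 of them could not enter. The 11409 genes did not have to pass the 4-fold limit, and their ratios ran up to 48.0. The 2 spreads are therefore not matched, and nothing is read from their difference.

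**Figure D3:**
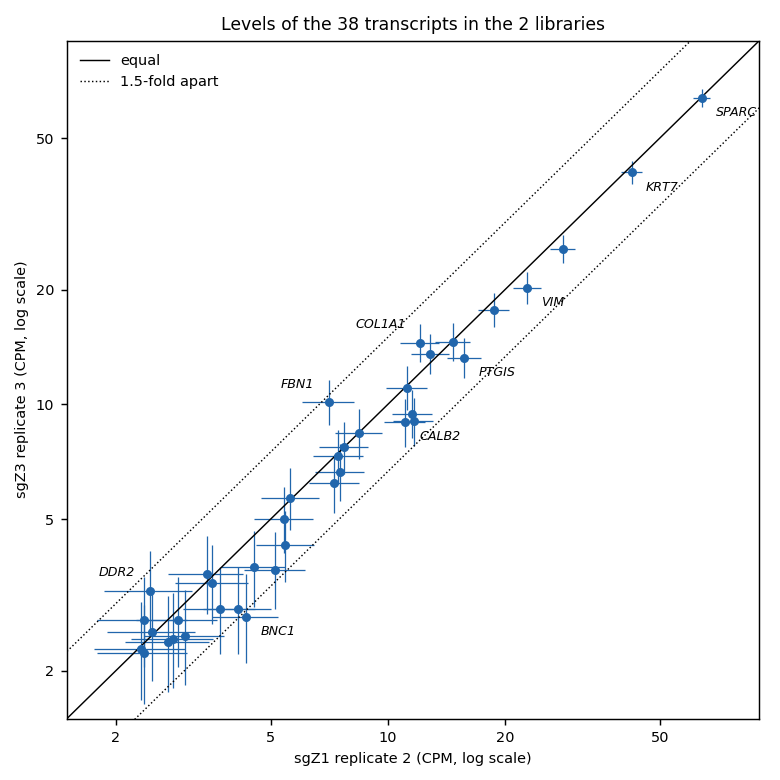
Level of each of the 38 members in sgZ1 replicate 2 (x axis, CPM, log scale) and sgZ3 replicate 3 (y axis, CPM, log scale). Bars are 95% Clopper-Pearson intervals, the solid line marks equality and the dotted lines a 1.5-fold difference. The points follow the line of equality from about 2 CPM to SPARC at 64.0 and 63.8 CPM, with FBN1 above the line and BNC1 below it.

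In the other 7 libraries the members were mostly near 0. In all of these 7, 31 members were under 1 CPM. The 8 members PTGIS, CALB2, DIO2, PSG1, BNC1, OLFML1, MYPN and IFI16 had 0 counts in all 3 sgC libraries, and 16 members had 3 counts or fewer over the 3. Of the 35 members with any count in these 7 libraries, the highest value was in a sgC library for 21 (sgC replicate 1 for 11), in a sgZ1 library for 10 and in a sgZ3 library for 4. The other sgZ1 libraries were both above every sgC and every other sgZ3 library for 5 members, CALB2, COL1A1, GJA1, LAMA4 and PTGIS. For PTGIS this rests on 1 count in each. No gene met the mirrored rule, with both libraries at least 4 times lower than each of the other 7 (0 genes).

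The edges of the rule were gradual. Just inside the 4-fold limit were SRGN, at 4.22 times the highest other library, ROBO1 at 4.32, COL4A1 at 4.70 and DDR2 at 5.66. Just outside were HSD3B1 (3.67), FBN2 (3.59), UPK3B (3.47) and FSTL1 (3.36). UPK3B, a uroplakin gene of mesothelium, had 19.9 CPM in sgZ1 replicate 2 and 17.6 CPM in sgZ3 replicate 3, against 3.07 to 5.00 CPM. FSTL1, a secreted follistatin-like glycoprotein, had 41.0 and 28.6 CPM, against 8.45 and 8.35 CPM in the other sgZ1 libraries, 0.187 and 0.664 CPM in the other sgZ3 libraries and 0.972, 1.49 and 1.31 CPM in sgC. A further 45 genes passed the 4-fold limit but not the 2 CPM minimum. They included UPK1B (2.36 and 1.94 CPM), the microfibril gene MFAP5 (1.63 and 1.5), the proteoglycan gene BGN (2.00 and 1.16), the podoplanin gene PDPN (1.63 and 1.70), MMP2 (1.51 and 1.31), WT1 (0.815 and 1.12) and COL3A1 (0.734 and 0.631).

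Marker lists were used to ask which cell type the set marks, and the answer was mixed. Of 28999 genes with a count, 760 (2.62%) were above all of the other 7 in both libraries and 83 (0.286%) were past the 4-fold limit with no minimum level. Of 16 mesothelial markers, 11 were above the other 7 in both libraries and 6 were past 4-fold, of which CALB2, ANXA8 and BNC1 were members. CALB2 was supplied with the set as a marker, so its place in these counts was fixed beforehand. WT1, UPK1B and PDPN were past 4-fold below 2 CPM, and UPK3B, LRRN4 (6.40 and 7.76 CPM, against at most 5.17), CLDN15 (3.42 and 3.35, against at most 2.21), KRT5 (11.4 and 7.13, against at most 4.75) and ITLN1 (1.55 and 0.679, against at most 0.317) were above the other 7 by less. MSLN, the mesothelin gene, was not, with 4.81 CPM in sgZ1 replicate 2 and 3.98 CPM in sgZ3 replicate 3, against 1.74 to 6.20 CPM. PKHD1L1 (0.0815 and 0.0970 CPM) and PRG4 (0.0408 and 0.194 CPM) were near 0. Summed, the mesothelial list gave 76.4 and 65.2 CPM, against 13.2 to 23.8 CPM.

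Of 30 fibroblast markers, 15 were above the other 7 in both libraries and 10 were past 4-fold. The 7 members among them were SPARC, VIM, CCDC80, THBS2, COL1A1, COL5A1 and FBN1, and COL3A1, MFAP5 and MMP2 were the other 3. SPARC, VIM, CCDC80, THBS2 and COL5A1 were supplied with the set as its markers, so their place in these counts was fixed beforehand. LOX, a collagen crosslinking enzyme, had 8.76 and 9.80 CPM, against 1.5 to 3.12 CPM, and FN1, the fibronectin gene, had 9.82 and 8.25 CPM, against 2.35 to 5.33 CPM. Genes that define fibroblasts were missing. DCN, TCF21 and DPT had 0 counts in both libraries, and COL1A2, LUM, FAP, PDGFRA, FBLN2, COL6A3 and PI16 were at or under 0.194 CPM in each. Summed, the fibroblast list gave 263 and 228 CPM, against 82.3 and 92.5 CPM in the other sgZ1 libraries and 16.0 to 29.4 CPM in the remaining 5. COL6A1 (38.4 and 19.1 CPM) was also high in the other sgZ1 libraries (31.8 and 36.8 CPM).

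Among 20 mesenchymal transcription factors and cadherins, 8 were above the other 7 in both libraries, and CDH11 was past 4-fold. ZEB1, a repressor of epithelial genes, had 1.39 and 1.21 CPM, against at most 0.331 CPM, and ZEB2 had 0.937 and 0.776 CPM, against at most 0.165 CPM. CDH2, N-cadherin, had 7.87 and 7.71 CPM, against 1.87 to 5.57 CPM. SNAI2 (0.163 and 0.243 CPM), TWIST1 (0.448 and 0.340 CPM) and PRRX1 (0.326 and 0.485 CPM) did not stand above the other 7. E-cadherin (CDH1) had 433 CPM in sgZ1 replicate 2 and 733 CPM in sgZ3 replicate 3, against 531 to 873 CPM, so its level was lower than the other 7 in sgZ1 replicate 2 and within their range in sgZ3 replicate 3.

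Markers of other cell types gave no members, although some were high. The set held 0 of 16 smooth muscle and pericyte, 0 of 12 endothelial, 0 of 15 leukocyte, 0 of 12 melanocyte, glial and neural crest, 0 of 10 skeletal muscle, 0 of 11 cartilage and bone, 0 of 8 adipocyte, 0 of 12 packaging cell and 0 of 11 basal and squamous markers. In smooth muscle, TAGLN, an actin-binding protein, had 33.6 and 34.3 CPM, against 20.9 to 32.9 CPM in the other 7. TPM2, a tropomyosin, had 38.4 CPM in sgZ1 replicate 2 and 4.51 CPM in sgZ3 replicate 3, 44.5 and 57.1 CPM in the other sgZ1 libraries, 0.187 and 0.153 CPM in the other sgZ3 libraries and at most 0.256 CPM in sgC. MYL9, a myosin light chain, had 20.1 and 5.19 CPM in the 2 libraries, 19.3 and 23.8 CPM in the other sgZ1 libraries and at most 1.23 CPM in the remaining 5. MCAM had 19.0 and 3.06 CPM in the 2 libraries, 19.7 and 21.0 CPM in the other sgZ1 libraries and at most 1.54 CPM in the remaining 5. CSPG4 had 12.3 and 1.75 CPM in the 2 libraries, 16.3 and 16.0 CPM in the other sgZ1 libraries and at most 0.220 CPM in the remaining 5. Each of these 4 genes was high in all 3 sgZ1 libraries, so none met the rule. MYH11 (0.0815 and 0.0485 CPM) and DES (0.204 and 0 CPM) were near 0 in the 2 libraries. KDR, with 0.937 and 1.36 CPM against at most 0.150 CPM, was the 1 endothelial marker above the other 7, and CDH5, EMCN and ROBO4 had 1 count or fewer in each of the 2 libraries. PTPRC, the pan-leukocyte marker, had 0 counts in both. KRT17, a basal keratin, had 3.26 and 3.15 CPM, against at most 0.900 CPM. Of 20 colon epithelial markers 0 were above the other 7 in both libraries, and the list summed to 10129 and 11938 CPM, against 10286 to 12507 CPM. The transcripts therefore match neither the mesothelial nor the fibroblast list in full, and the set is described here by its leading genes, SPARC, KRT7, CCDC80, VIM and THBS2. The part that cells of another type had in these levels was not tested.

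**Figure D4:**
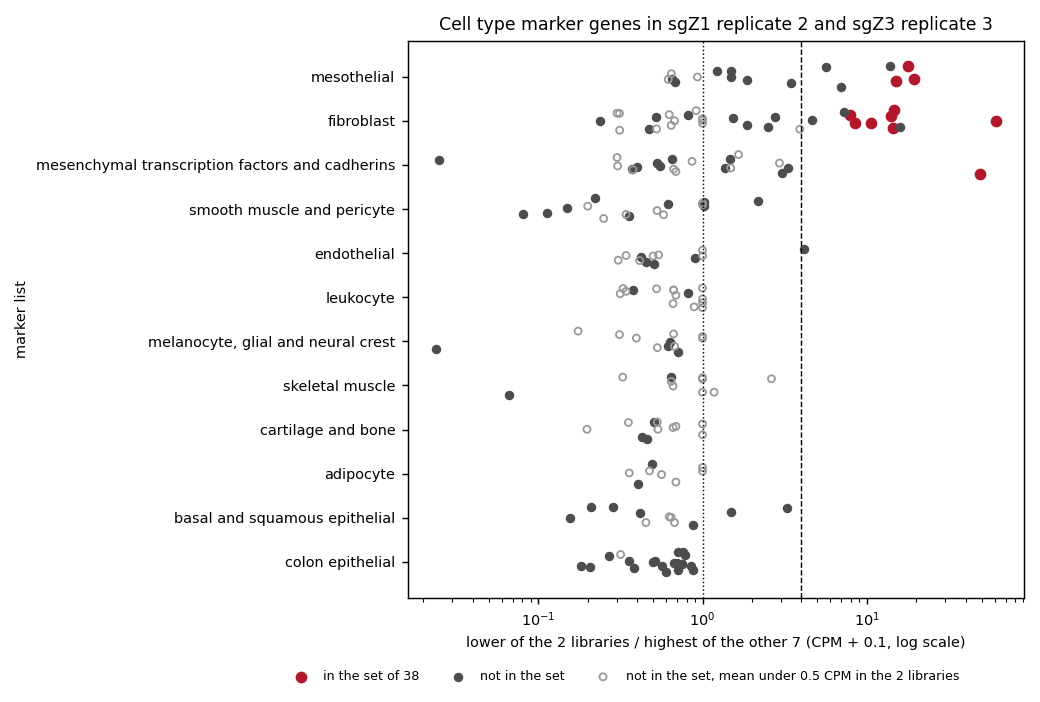
For each marker gene (points, 1 list a row) the lower of sgZ1 replicate 2 and sgZ3 replicate 3 divided by the highest of the other 7 libraries, after 0.1 CPM was added (log scale). The dotted line marks a ratio of 1 and the dashed line the 4-fold limit. Filled red points, the members, lie in the mesothelial, fibroblast and mesenchymal factor rows, and open grey points are genes averaging under 0.5 CPM in the 2 libraries.

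Lists of matrix genes show how selective the set was within its own functions. Of 22 collagen genes 9 were above the other 7 in both libraries, and 5 were past 4-fold: COL1A1, COL4A1, COL5A1, COL3A1 and COL8A1. COL5A2, the partner chain of COL5A1, had 5.38 and 5.48 CPM, against 0.561 to 2.09 CPM. COL4A2, the partner of COL4A1, had 38.7 and 42.3 CPM, against 21.2 to 34.0 CPM. Of 38 matrix glycoproteins and proteoglycans 19 were above the other 7 in both libraries and 8 were past 4-fold, 6 of them members. MATN2, a matrilin, had 21.4 and 25.1 CPM, against 6.44 to 10.7 CPM. Of 29 crosslinking enzymes, proteases and inhibitors 9 were above and 0 were members. Of 24 integrins and matrix receptors 2 were above, DDR2 and ITGA11 (0.122 and 0.0970 CPM). The counts were 2 of 26 for the TGF-beta, BMP and activin pathway, 4 of 24 for YAP and TEAD targets, 8 of 31 for growth factor families and 0 of 39 for HOX genes. The lists share genes with one another and with the set, and were chosen with earlier results of these data known.

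With the filter on low counts, the members gave no call between the guides. In edgeR's quasi-likelihood test over 14732 genes, 33.2% of genes were called for both guides against sgC, 25.8% for sgZ1 against sgC, 36.3% for sgZ3 against sgC and 28.6% for sgZ3 against sgZ1 (Benjamini-Hochberg adjusted p under 0.05). Of the members, 13 of 38 passed the filter on low counts, and 0 were called in each of the 4 comparisons, with 0 also at an unadjusted p under 0.05. Without that filter all 38 were tested, and 38 were called higher for both guides, for sgZ1 and for sgZ3 against sgC, where 10.5%, 9.96% and 10.3% of 28999 genes were called higher, and 0 were called for sgZ3 against sgZ1. The cause of this change was not tested. The rule itself requires 1 high library in each guide and places the rest low. These counts, the fold changes and their p-values therefore describe its effect on the test. SPARC averaged 24.3 ± 34.4 CPM in sgZ1 and 24.8 ± 33.8 CPM in sgZ3, against 5.58 ± 0.278 CPM in sgC (SD, n = 3 each). On the log2 scale both guides together differed from sgC by 2.25 (SE 1.40, edgeR adjusted p = 0.259). VIM averaged 7.97 ± 12.8 CPM in sgZ1 and 6.82 ± 11.6 CPM in sgZ3, against 0.557 ± 0.626 CPM in sgC, with a log2 fold change of 3.85 (SE 2.35, edgeR adjusted p = 0.250). For CALB2, at 0 counts in all of sgC, the means were 3.94 ± 6.19 CPM in sgZ1 and 2.99 ± 5.18 CPM in sgZ3. In each case the SD of a guide exceeded its mean. Of the listed pathway genes, edgeR called for both guides against sgC 0 of 7 tested mesothelial markers, 1 higher (COL6A2) and 1 lower (PRRX1) of 15 fibroblast markers, 2 higher (COL18A1 and COL6A2) and 2 lower (COL11A1 and COL16A1) of 13 collagens, and 1 higher (MFAP2) and 2 lower (SRPX2 and TGFBI) of 25 matrix glycoproteins. Of 8 smooth muscle and pericyte markers it called 5 higher (CSPG4, MCAM, MYL9, TAGLN and TPM2) and 1 lower (NOTCH3). Without the filter on low counts the calls, members included, came to 11 higher of 16 mesothelial markers, 15 higher and 1 lower of 29 fibroblast markers, 10 higher and 2 lower of 22 collagens, 16 higher and 3 lower of 38 glycoproteins and 6 higher and 1 lower of 15 smooth muscle markers. With sgZ1 replicate 2 and sgZ3 replicate 3 both left out they came to 2 higher of 7 mesothelial markers, 2 higher and 5 lower of 15 fibroblast markers, 4 higher and 6 lower of 12 collagens, 2 higher and 10 lower of 24 glycoproteins and 4 higher and 1 lower of 8 smooth muscle markers. Without sgC replicate 1, 2 or 3 the calls of COL6A2, COL18A1, CSPG4 and TPM2 were lost, without sgC replicate 1 or 3 those of COL11A1, SRPX2, TGFBI and NOTCH3 as well. COL18A1 was also lost without sgZ1 replicate 2 and in the fit with replicate number as a block, CSPG4 without sgZ3 replicate 3 and in that fit, and TGFBI without sgZ3 replicate 2. Of 10 mesenchymal transcription factors and cadherins tested, 4 were called higher (FOXF1, PRRX2, SNAI1 and TBX18) and 3 lower (GATA6, PRRX1 and TCF4). Without the filter these counts were 8 and 3 of 20, members included, and with both libraries left out 2 and 5 of 9. PRRX2, SNAI1, PRRX1 and TCF4 kept their calls when any single library was left out. FOXF1, TBX18 and GATA6 lost theirs without sgC replicate 1, 2 or 3. Over all genes 18.6% were called higher and 14.6% lower (2734 and 2151 genes), and with library totals alone the split was 1885 higher and 3265 lower. None of the listed genes called with the filter and all 9 libraries is a member of the set.

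DESeq2 returned no p-value for any of the 13 members. Over all 14732 genes it returned none for 25 (0.17%). With sgZ1 replicate 2 and sgZ3 replicate 3 both left out, 10 members passed the filter. The sgZ1 libraries that remained had 1.44 and 1.20 CPM of COL1A1, against 0.665, 0.331 and 0.362 CPM in sgC, and the sgZ3 libraries that remained had 0.312 and 0.306 CPM of THBS2 and 1.18 and 1.23 CPM of COL4A1, against 0.661 to 1.18 CPM and 2.10 to 3.03 CPM in sgC. These genes are among the 5 that edgeR then called in at least 1 comparison, the others being CCDC80 and KRT7. Since the rule caps these libraries too, the calls are given as values.

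The positions of the members are given without the matching shares over all genes, so nothing is read from these counts. All 38 were protein coding and were found in GENCODE 29. They lay on 19 chromosomes, with 6 on chromosome 10 (VIM, ANXA8, SRGN, PLXDC2, KCNMA1 and MYPN) and 5 on chromosome 5 (SPARC, TENM2, EDIL3, ARSI and SLIT3). Exons of 12 members overlap exons of a gene on the opposite strand, and 2 overlap one on the same strand (C1S and CDH11). Since the strand setting of counting is not given in the sources used here, reads of such partners cannot be told apart. For the most abundant pairs the partners were low in the 2 libraries, KRT7-AS at 0.856 and 0.970 CPM and VIM-AS1 at 0.163 and 0 CPM.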

How the data were processed

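Per the labels, RNA was read from poly(A) libraries, and the authors deposited 1 table of raw counts (whole numbers per gene and library, with no normalization). Tools named in the submitters' processing notes are STAR 2.5.2b, SAMtools 1.9, HTSeq and DESeq2. The notes also name hg38 (GRCh38) and give none of these a role. Strand setting and annotation release were not found in the labels or headers. The ribosomal RNA libraries were not used here. The description of sgC replicate 3 points to the ribosomal RNA table, but it was kept as poly(A) because both its title and its molecule say so.

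CPM are counts per 1000000 counts of the library. Intervals are 95% Clopper-Pearson intervals. A group at 0 was given a limit of 3 counts, summed over its libraries. Both cover counting error only. Guides were compared with edgeR 4.0.16 and limma 3.58.1 in R 4.3.3, after filterByExpr and TMM scaling, by robust quasi-likelihood fits to the 9 libraries together, with group as the term and Benjamini-Hochberg adjusted p under 0.05 as the call. The common biological coefficient of variation came to 12.7%. The steps were tested on simulated counts with known changes. DESeq2 1.42.0, other scalings, filters and limits, a replicate block and the removal of each library were alternatives. For sgZ3 against sgC the deviations of same-numbered libraries correlated at 0.109, 0.311 and 0.425, each over the limit of 0.1 set for pairing. This was read only as a hint from the data that the numbers pair these samples. The replicate 1 library of sgZ3 correlated best with sgC replicate 2. Over all groups, 4 of 9 same-numbered pairs were also the best match. With the replicate block, 5974 genes and 0 members were called for sgZ3 against sgC. GENCODE 29 (GRCh38) held 44831 of the table's genes and gave coordinates, lengths and overlaps. Promoter windows are RefSeq's (GRCh38.p14), matched by gene symbol.

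The members and the 21 gene lists were chosen with earlier results of these data known. Named genes are the 6 marker genes supplied with the set, the most abundant and most separated members, the leading genes of each list, the genes at the edges of the rule and markers near 0. Other members, the roles and genes named behind small counts were chosen after their values were seen. Of the members, 1 is counted in the totals but is not reported here by name, nor is 1 listed matrix gene.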

Additional observations from a re-analysis of the deposited data

How the results depend on the processing

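The number of genes meeting the rule was 38. It was 60 with a minimum of 1 CPM, 20 with a minimum of 5 CPM, 59 with a 2-fold limit, 26 with an 8-fold limit, 21 with 1 CPM added in place of 0.1 and 39 with TMM-scaled library sizes. Leaving out single libraries gave 38 to 45. With sgZ1 replicates 1 and 3 setting no limit, an alternative chosen after seeing the data, it was 63. All 38 members were among the genes found in each of these settings except those with fewer than 38. The number of members called by edgeR was 0 in all 4 comparisons, 0 to 0 when single libraries were left out, and 0 with RLE factors and with library totals alone. Without the filter on low counts it was 38 for both guides, for sgZ1 and for sgZ3 against sgC, and 0 for sgZ3 against sgZ1. The cause was not tested. With sgZ1 replicate 2 and sgZ3 replicate 3 both left out it was 2 for both guides against sgC (COL4A1 and THBS2, lower), 1 for sgZ1 (COL1A1, higher), 4 for sgZ3 (KRT7 higher; CCDC80, COL4A1 and THBS2 lower) and 4 for sgZ3 against sgZ1 (CCDC80, COL1A1, COL4A1 and THBS2, lower), with fewer samples and 10 members tested. DESeq2 gave no p-value for the members. Its median log2 fold change for those passing the filter was 2.71 for both guides against sgC, beside 2.72 in edgeR. Counts over all genes moved by over 1.5 times in some settings. For both guides they were 4885, 7409 without both libraries, and 2201 and 2389 without sgC replicate 1 or 3. Library totals alone changed the split from 2734 higher and 2151 lower to 1885 higher and 3265 lower. For sgZ1 against sgC and for sgZ3 against sgZ1, replicate numbers did not pair the samples by the limit of 0.1 in every pair (same-numbered correlations of 0.0179 to 0.451 and of -0.216 to 0.0449). With the replicate block 0 members were called in all 4 comparisons, and counts over all genes stayed within 1.5 times. For both guides the block ended the calls of COL18A1, CSPG4, TBX18 and DSC3 and added LAMC1, LTBP1 and TWIST1, lower. Further listed genes changed too, with CDH1, VIL1 and EGFR among those added, lower. Counts of 1 to 3 in the low libraries limit any order among them.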

Other observations

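A second group of genes came from a looser form of the rule. When sgZ1 replicates 1 and 3 set no limit, 25 further genes met the rule, an alternative chosen after seeing the data. Their high values in sgZ1 replicate 2 and sgZ3 replicate 3, and low values in the other 5 libraries, are therefore its definition. A gene outside the set also had to fail the 4-fold limit against sgZ1 replicate 1 or 3. The values are given as a description. MSN, the moesin gene, had 35.3 CPM in sgZ3 replicate 3 and 97.5, 107 and 106 CPM in sgZ1, against 2.74 and 1.94 CPM in sgZ3 replicates 1 and 2 and 6.91, 7.88 and 6.33 CPM in sgC. FLNC, a filamin, had 27.1 CPM in sgZ3 replicate 3 and 36.8, 41.4 and 42.1 CPM in sgZ1, against 0.499 and 0.409 CPM in the other sgZ3 libraries and 0.512, 0.716 and 0.633 CPM in sgC. COL6A1, EHD2, ANTXR1, RAB31 and TPM2 were likewise higher in sgZ3 replicate 3 and in all 3 sgZ1 libraries than in the other 5. DKK1, a secreted inhibitor of Wnt signalling, had 7.91 CPM in sgZ3 replicate 3 and 299, 379 and 305 CPM in sgZ1, against 0.686 and 0.970 CPM in the other sgZ3 libraries and 0.358, 0.276 and 0.724 CPM in sgC.

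Of these 25 genes, 8 were also at least 2 times higher in sgZ1 replicate 2 than in both of its sister libraries. They were FSTL1, WNT2B, ALDH1A3, MRC2, AXL, KRT5, COL12A1 and LOXL2. ALDH1A3, a retinaldehyde dehydrogenase like the member ALDH1A2, had 58.3 CPM in sgZ1 replicate 2 and 41.6 CPM in sgZ3 replicate 3. It had 20.3 and 19.3 CPM in the other sgZ1 libraries, 5.80 and 6.90 CPM in the other sgZ3 libraries and 6.86, 6.61 and 7.96 CPM in sgC. LOXL2, a collagen crosslinking enzyme, had 24.4 and 20.1 CPM in these 2 libraries, 9.27 and 12.0 CPM in the other sgZ1 libraries and at most 0.205 CPM in the remaining 5. The 25 genes were not tested as a group. Single calls are given only for those also in the gene lists, so they give no share of the 25. Singly, edgeR called COL6A2, COL18A1, TPM2 and DSC3 higher for both guides against sgC, where 18.6% of all tested genes were called higher. Each of these calls was lost without sgC replicate 1, 2 or 3. FSTL1, KRT5, COL12A1, LOXL2, AXL and COL6A1, also in the gene lists, were not called there with all 9 libraries and the filter. The rule used these libraries, so the calls are given as values.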
